A study of Mus musculus with 8 samples.

Results

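The members described here are the subunits of the mitochondrial respiratory chain and ATP synthase that carry a probe set on the array. They were chosen by gene symbol alone, as probe sets with a single symbol in the platform annotation that begins with Nduf, Uqcr, Atp5, Cox4, Cox5, Cox6, Cox7 or Cox8, or that is Sdha, Sdhb, Sdhc, Sdhd, Cycs or Cyc1. Of the 12488 probe sets of the series 101 matched, for 73 genes. Of these, 34 probe sets lay under log2 5 on all 8 arrays and were skipped, which left 67 probe sets for 60 genes. Cox6b1 reached log2 5 on 1 array alone, at 6.16 in untreated KO cells, so 59 genes entered the tests.

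The samples are mouse embryonic fibroblasts of 4 groups with 2 arrays each. The Stat3+/+ cells (WT) and the Stat3-/- cells (KO) are each 1 spontaneously immortalised line, so an effect of losing Stat3 and any other way in which these lines differ cannot be told apart. Cells of both lines were left untreated or were given oncostatin M (OSM), a cytokine that signals through gp130 to STAT3, at 20 ng/ml for 30 minutes, and all grew in medium with 10% serum and 2 mM glutamine. Which arrays were untreated was read from the sample titles, because the treatment text is the same for every sample. In each group the titles number the arrays 2 and 3, but give no meaning for that number and do not say whether the arrays came from separate cultures, so p-values may measure technical spread.

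The respiratory chain sits in the inner mitochondrial membrane. Complex I takes electrons from NADH and complex II from succinate, ubiquinone hands them to complex III, cytochrome c carries them to complex IV, and complex IV passes them to oxygen. Complexes I, III and IV pump protons, and complex V, the ATP synthase, uses the return of these protons to make ATP. Apart from complex II, each complex joins subunits encoded in the nucleus with subunits encoded in the mitochondrial genome, and the members here are all nuclear. STAT3 is best known as a transcription factor and has also been described inside mitochondria, where an action on the chain has been reported.

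Complex I was covered by 26 tested genes of 29 that matched by symbol, together with the assembly factors Ndufaf1 and Ndufaf4. All 4 subunits of complex II were tested, as were the 8 complex III genes that matched by symbol and the cytochrome c gene Cycs. Complex IV was covered by 8 of 15 genes and complex V by 10 of 14. In 13 genes every probe set was skipped, namely Ndufa10, Ndufa12, Ndufc2, Cox5a, Cox6a2, Cox7a1, Cox8a, Cox8b, Cox8c, Atp5g1, Atp5j2, Atp5k and Atp5pb. The muscle isoforms Cox6a2, Cox7a1 and Cox8b are in that list, as is Cox8a, the isoform that most tissues use, and a dim probe set is not read here as absence of the transcript. A further 10 probe sets name several genes, a chain subunit among them, and are not members.

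The array medians over all probe sets ran from log2 5.27 to 5.66, and 51.1% to 52.9% of probe sets reached log2 5. Stat3, the targeted gene, read 10.11 and 10.50 on the brighter probe set in untreated WT cells and 11.82 and 11.94 in WT cells with OSM. The same probe set read 8.08 and 7.81 in untreated KO cells and 8.70 and 9.17 in KO cells with OSM, so every KO array lay below every WT array. The second Stat3 probe set read 2.76, 2.86 and 2.94 on 3 KO arrays and 7.30 on the KO array with OSM numbered 3, against 9.80 to 12.57 on the WT arrays. Of 13 fibroblast markers 10 reached log2 5 on all arrays, while Thy1 and Vim reached it on none. Of 17 markers of skeletal and heart muscle 2 reached it on all arrays (Actc1 and Myog) and 14 on none.

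Most chain transcripts were bright. Below, a gene's 8 log2 values are given for WT untreated, WT with OSM, KO untreated and KO with OSM, in this order, first for the arrays numbered 2 and then for those numbered 3. Cox6a1, a nuclear subunit of complex IV, read 16.07, 16.02, 16.22 and 15.74 and then 15.16, 15.12, 15.33 and 15.08. The assembly factor Ndufaf4 and Cycs lay at 5.20 to 8.62 and at 8.16 to 10.63, and Ndufa1 and Ndufs4 were the dimmest, at 5.03 to 6.67 and at 4.42 to 5.16. Brightness depends on the probe as well as on the transcript, so these levels set no order among genes.

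**Figure D1:**
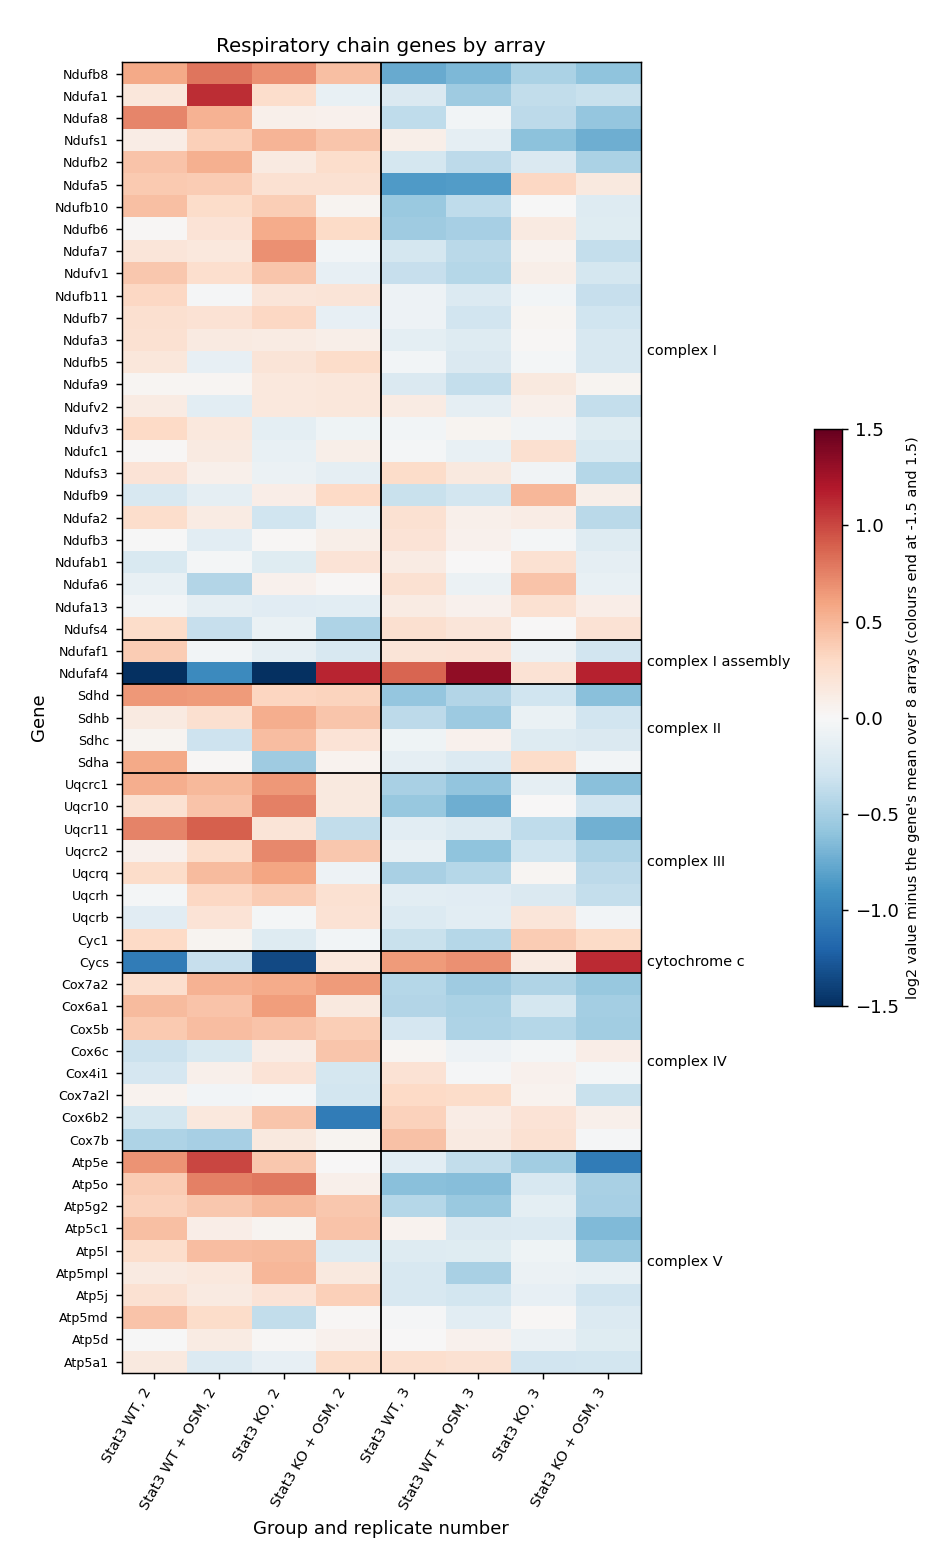
Heat map of the 59 tested chain genes (by complex) on the 8 arrays (the arrays numbered 2 on the left, those numbered 3 on the right), coloured by the log2 value minus the gene's mean over the 8 arrays, with colours ending at -1.5 and 1.5. Most genes of complexes II, III and V are above their mean on the left and below it on the right, and Cycs and Ndufaf4 run the other way apart from their KO arrays with OSM numbered 2.

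The question of the Stat3 comparison was whether cells without Stat3 differ in gene expression from cells with it. None of the 59 chain genes was called higher or lower in KO than in WT cells by limma (adjusted p under 0.05), averaged over untreated and OSM arrays, where 0.0192% of the 5195 genes tested were called. At an unadjusted p under 0.05, 1 chain gene passed, against 6.08% of all genes. With the replicate number as a block 0 members were called, against 0.481% of all genes, and 7 of 59 passed unadjusted, against 18.1%. The median difference of the members was 0.02 on the log2 scale, with 32 above 0 and 27 below, beside a median of -0.04 over all genes tested. Untreated, the members' median was 0.08, and within the numbers 2 and 3 it was 0.03 and 0.04. With OSM it was -0.05, and within the numbers it was -0.08 and -0.03. No chain gene was called by limma in either state, where 0.0% of genes were called untreated and 0.0192% with OSM, and 1 member untreated and 0 with OSM passed an unadjusted p under 0.05, against 2.35% and 3.81% of all genes.

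By complex, the genes split evenly or nearly so, except in complex III. Complex I had 13 genes above 0 and 13 below, complex II 2 and 2, complex IV 4 and 4, and complex V 4 and 6. Complex III had 7 of 8 genes above 0, with a median of 0.12. In untreated cells numbered 2, 7 of 8 complex IV genes were higher in KO, whereas in those numbered 3, 7 of 8 were lower, so the sign of this complex changed with the number.

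The member with the smallest p was Ndufb9, an accessory subunit of complex I. It read 12.95, 13.05, 13.28 and 13.49 and then 12.85, 12.91, 13.69 and 13.27. Every KO array was above every WT array, as in 2 members in all, while in 3 members every KO array was below every WT array (1.87% and 3.93% of all genes). For Ndufb9 the difference was 0.49 ± 0.17 (limma SE) with an adjusted p of 0.738, and 0.188 with the replicate block.

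Uqcr11, a small subunit of complex III, lay the other way. Its values were 12.73, 12.88, 12.18 and 11.62 and then 11.82, 11.77, 11.61 and 11.26. KO was below WT within each number and treatment, while the arrays of the genotypes overlapped when the numbers were pooled. The difference was -0.64 ± 0.36, with an adjusted p of 0.999 by limma and 0.162 with the block. Cox6c in complex IV differed by 0.30 ± 0.15 (adjusted p = 0.957), Atp5md in complex V by -0.26 ± 0.20 (adjusted p = 0.999) and Ndufaf1 by -0.37 ± 0.20 (adjusted p = 0.979).

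Within numbers, a KO array can be set against the WT array of the same number and treatment, which gives 4 matched differences. In 6 members all 4 were above 0, which is 10.2% against 9.89% of all genes tested, namely Ndufb6, Ndufb9, Ndufa9, Sdhb, Uqcrb and Atp5g2. In 8 members all 4 were below 0, 13.6% against 14.9% of all genes, namely Ndufa2, Ndufa8, Ndufs3, Ndufv3, Ndufaf1, Uqcr11, Cox7a2l and Atp5e. Both shares lay near those of all genes, and members of the same complex stood on both sides.

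The OSM comparison asked how the cells respond to the cytokine with and without Stat3. No chain gene was called by limma in WT cells, in KO cells or in the mean over both, where 0.0% of all genes tested were called in each. At an unadjusted p under 0.05 no member passed in any of these 3, against 1.96%, 2.10% and 3.98% of all genes. With the replicate number as a block 0 members were called in the mean over both lines, against 0.135% of all genes, and 4 of 59 passed unadjusted, against 13.9%. In no member were all OSM arrays above or below all untreated ones, as 1.85% and 1.46% of all genes were. The test of whether OSM acted differently in KO and WT cells called no member and no gene (0.0%), and 0 members passed unadjusted against 0.462% of all genes.

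Averaged over the lines, 49 of the 59 members lay below 0 with OSM and the median was -0.11, beside -0.03 over all genes, of which 2804 of 5195 lay below 0. With 1 array left out the members' median ran from -0.22 to 0.02. These are small differences without a call, and 24 of 26 complex I genes, 4 of 4 of complex II, 6 of 8 of complex III, 6 of 8 of complex IV and 8 of 10 of complex V had this sign. In WT cells the members' median was -0.03, and within the numbers it was -0.0042 and -0.10. In KO cells the median was -0.15, with 50 of 59 members below 0, and within the numbers it was -0.05 and -0.22. In the KO cells numbered 3 alone, 53 of 59 members lay below 0, so the KO median leaned on that number, and with 1 array left out it ran from -0.36 to 0.02.

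**Figure D2:**
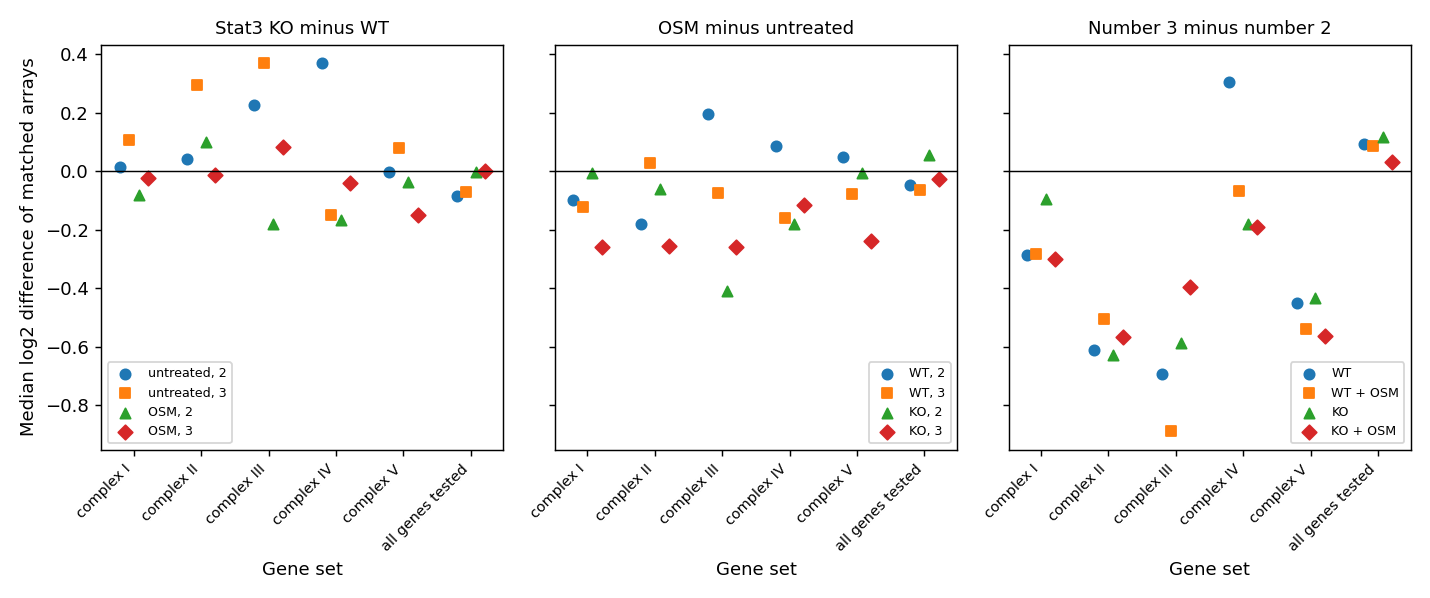
Median log2 difference of the genes of each complex and of all 5195 genes tested, for each matched pair of arrays, in panels for KO minus WT, OSM minus untreated and number 3 minus number 2. In the last panel the medians of complexes I, II, III and V are below 0 in all 4 groups (-0.40 to -0.89 in complex III), and in the other panels most lie on both sides of 0.

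The matched OSM differences give the same members by array. In 10 members all 4 were below 0, 16.9% against 16.8% of all genes, namely Ndufa3, Ndufa6, Ndufa7, Ndufb7, Ndufs3, Ndufv1, Uqcrc1, Cox6a1, Cox7a2l and Cox7b. With arrays centred on their medians 3 members did so, against 14.3% of all genes, and with quantile normalization 16 did, against 19.6%. In 2 members all 4 were above 0, 3.39% against 13.5% of all genes. They were Cycs and Ndufaf4, so none of the 55 structural subunits was higher with OSM in all 4.

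Cycs encodes cytochrome c, the soluble electron carrier that also triggers apoptosis once released from mitochondria. It read 8.46, 9.16, 8.16 and 9.67 and then 10.15, 10.20, 9.64 and 10.63. OSM arrays were higher in each matched set, by the least in WT cells numbered 3, and the groups overlapped when the numbers were pooled. The mean difference was 0.81 ± 0.57, with an adjusted p of 1 by limma and 0.201 with the block.

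Ndufaf4, a factor for the assembly of complex I, read 5.62, 6.34, 5.20 and 8.43 and then 8.17, 8.62, 7.50 and 8.44. The largest step was in KO cells numbered 2, from 5.20 to 8.43. The mean difference was 1.34 ± 0.86, with an adjusted p of 1, and 0.318 with the block. In bulk RNA, fewer cells expressing a transcript and less of it per cell cannot be told apart. For the remaining complexes the smallest p with OSM belonged to Ndufa6 (-0.31 ± 0.19), Sdhc (-0.13 ± 0.23), Uqcrc1 (-0.29 ± 0.40), Cox6b2 (-0.35 ± 0.32) and Atp5l (-0.24 ± 0.25), each with an adjusted p of 1.

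**Figure D3:**
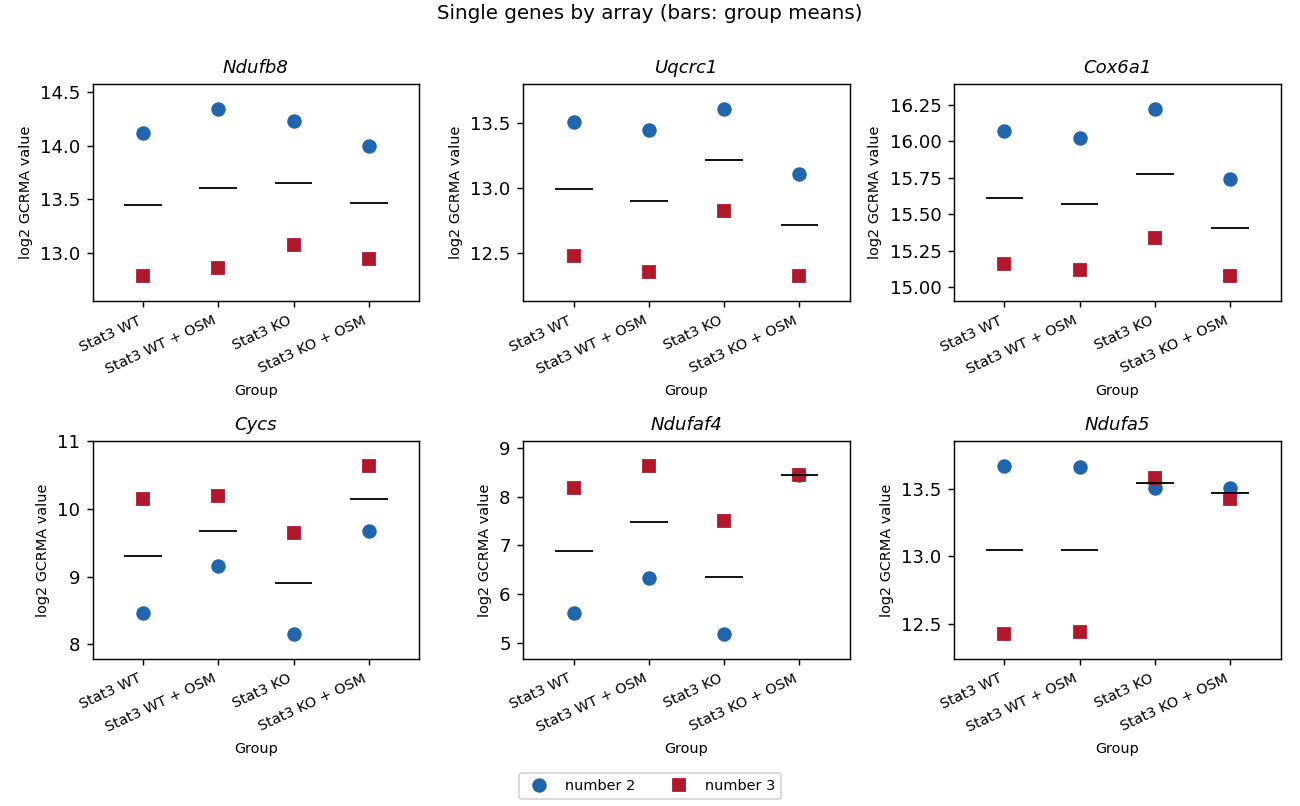
Log2 values of 6 single chain genes on the 8 arrays, by group, with the replicate number shown by the marker and bars at group means. Within each group Ndufb8, Uqcrc1 and Cox6a1 are lower and Cycs is higher on the array numbered 3, Ndufaf4 is so in 3 groups and level in KO cells with OSM (8.43 and 8.44), and the Ndufa5 values of the numbers lie apart in WT cells alone.

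Calls among the chain genes came with the replicate number. Each number holds all 4 groups, so number 3 minus number 2 was tested with the group means in the model. Of the 59 members 23 were called lower on the arrays numbered 3, which is 39.0%, against 17.7% of all genes tested. Cycs and Ndufaf4 were called higher, where 22.6% of all genes were, and in either direction 40.3% of all genes were called. At an unadjusted p under 0.05, 32 members and 51.3% of all genes passed. The members' median was -0.32, with 45 of 59 below 0, while the median of all genes was 0.08. Among the 1670 genes with a mean of at least log2 11, 20.9% were called lower and 20.5% higher, with a median of -0.01.

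Genotype and OSM are balanced in this difference, because each number holds all 4 groups. Some control probe sets of the array differed between the numbers, and others overlapped. The 18S ribosomal RNA control at the 3' end read 11.02 to 11.67 on the arrays numbered 2 and 14.75 to 15.13 on those numbered 3. Of the spiked controls, BioB at its 3' end read 9.78 to 10.05 and 6.73 to 7.36, BioB at its 5' end 8.53 to 9.16 and 7.41 to 7.55, and CreX at its 3' end 14.87 to 14.96 and 14.66 to 14.94. For actin, the 3' probe set exceeded the 5' one by 0.33 to 0.53 and by 0.72 to 1.11, while for Gapdh the excess was 0.03 to 0.11 and 0.00 to 0.27. As the log2 of the linear values summed over its list, the fibroblast marker level was 17.66 to 18.05 on the arrays numbered 2. On those numbered 3 the fibroblast level was 18.11 to 18.50. The brightest genes of a list weigh most in such a sum. For adipocyte markers the summed level was 9.07 to 10.99 and 11.64 to 13.32, with Lpl alone at log2 5 on all arrays and Adipoq, Fabp4, Pparg and Retn on none. Summed muscle markers lay at 11.01 to 11.37 and 10.92 to 11.33, and endothelial ones at 6.61 to 6.90 and 7.17 to 8.53. Of 3 muscle markers tested, Tnnt2 and Myog fell by 2.15 and 1.46 (limma adjusted p = 0.00543 and 0.00925). Actc1 was at 0.26 and was not called (adjusted p = 0.177). Of 2 endothelial markers tested, Kdr rose by 1.99 (adjusted p = 0.0128) and Pecam1 was at 0.22 (adjusted p = 0.325). Tnnt2 reached log2 5 on 2 arrays and Kdr on 4. The part of these controls and markers in the difference was not tested.

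**Figure D4:**
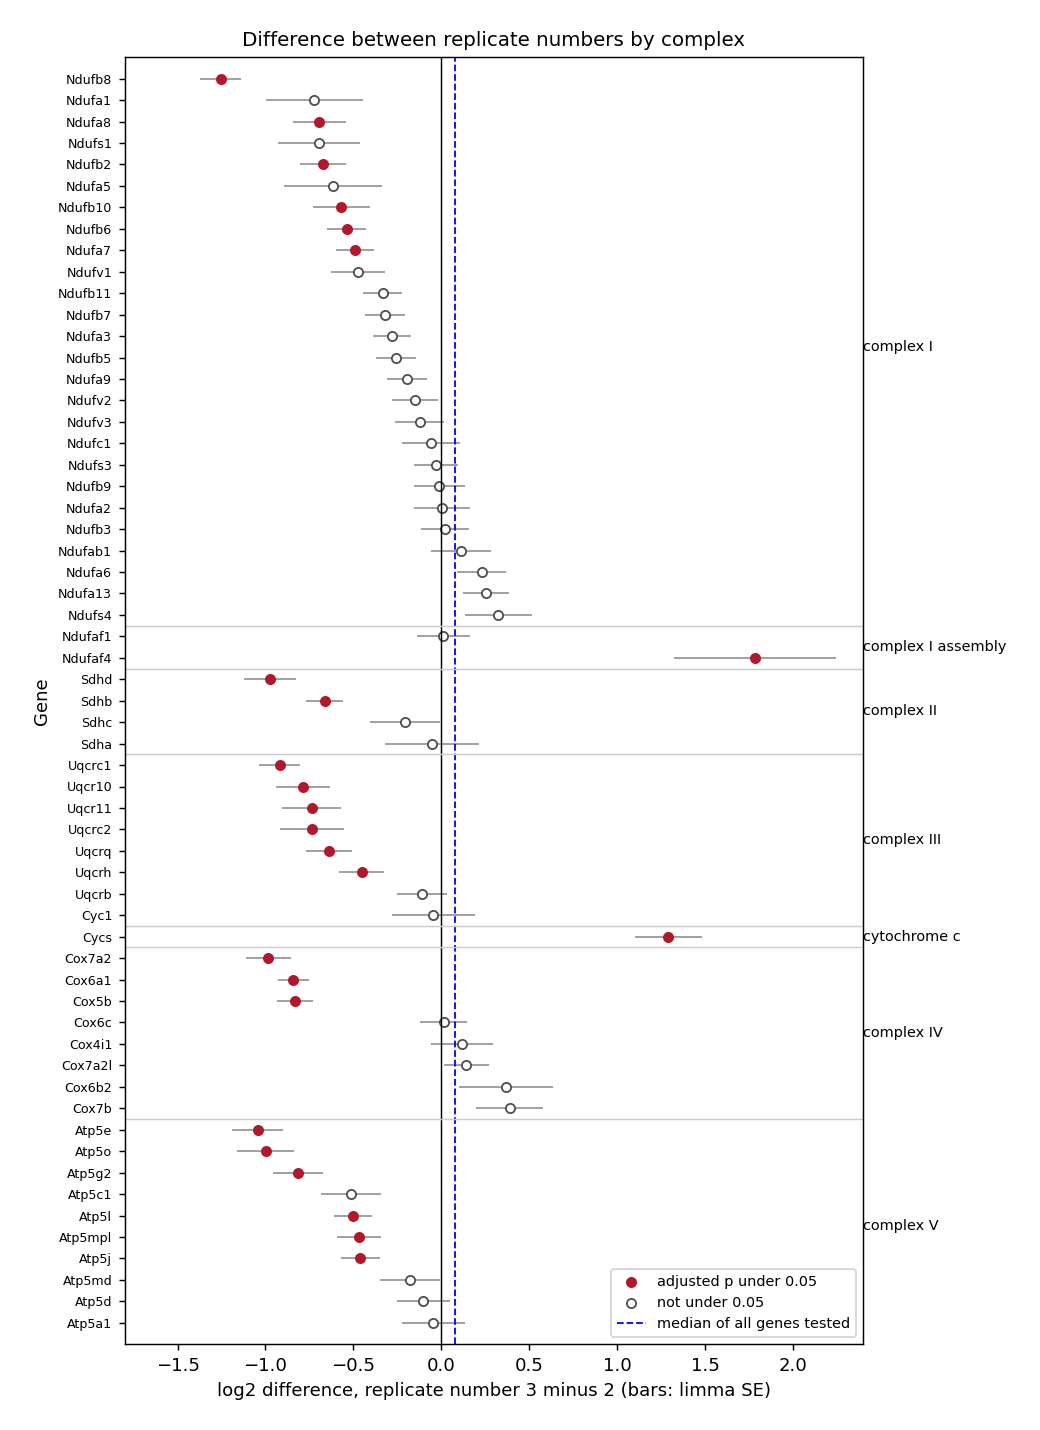
Log2 difference between replicate number 3 and number 2 for each tested chain gene, by complex, with bars for limma standard errors, filled points for genes called at an adjusted p under 0.05 and a dashed line at the median of all genes tested (0.08). In complexes II, III and V no gene lies above 0, complex IV has genes near 0 and others near -0.9, and Cycs and Ndufaf4 lie above 1.

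The complexes differed in how many of their genes were called. In complex III, which moves electrons from ubiquinol to cytochrome c, 6 of 8 genes fell and the median was -0.69. In complex V 6 of 10 fell, with a median of -0.49 and all 10 genes below 0. In complex II 2 of 4 fell, with a median of -0.43. In complex I 6 of 26 fell, with a median of -0.27. In complex IV 3 of 8 fell, while 5 of 8 lay above 0 and the median was 0.07. These differences between complexes were not tested.

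Ndufb8, an accessory subunit in the membrane arm of complex I, had the largest fall. It read 14.12, 14.35, 14.23 and 13.999 and then 12.79, 12.87, 13.08 and 12.94. All 4 arrays numbered 3 lay below all 4 numbered 2, with a difference of -1.25 ± 0.12 (adjusted p = 0.00338). The other complex I genes that fell were Ndufa7, Ndufa8, Ndufb2, Ndufb6 and Ndufb10, by between 0.49 and 0.69. All 6 are accessory subunits, as are 22 of the 26 complex I genes tested. None of the 4 core subunits on the array, which belong to the arm of complex I in which electrons move, was called by limma. Ndufs1 was at -0.69 ± 0.23 (adjusted p = 0.0604), Ndufv1 at -0.47 ± 0.15 (adjusted p = 0.0532), Ndufv2 at -0.15 and Ndufs3 at -0.03. Of the 4, 2 passed an unadjusted p under 0.05. The median of the core subunits was -0.31, beside -0.27 for all complex I genes tested. A difference between core and accessory subunits was not tested.

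Succinate dehydrogenase, complex II, has a flavoprotein (Sdha), an iron-sulfur protein (Sdhb) and a pair of membrane anchors (Sdhc and Sdhd). Sdhd read 12.71, 12.71, 12.39 and 12.40 and then 11.48, 11.62, 11.77 and 11.44. Sdhb read 13.37, 13.48, 13.78 and 13.65 and then 12.84, 12.69, 13.14 and 12.95. In both genes the arrays of the numbers did not overlap. Sdhd fell by 0.97 ± 0.15 (adjusted p = 0.00766) and Sdhb by 0.66 ± 0.11 (adjusted p = 0.00874), a call that was lost without the WT array with OSM numbered 2 (adjusted p = 0.0523).

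Sdha and Sdhc did not pass. Sdha read 10.36, 9.82, 9.27 and 9.85 and then 9.67, 9.59, 10.07 and 9.75, with number 3 below number 2 except in untreated KO cells (-0.05 ± 0.27, adjusted p = 0.88). Sdhc read 12.41, 12.05, 12.83 and 12.58 and then 12.30, 12.43, 12.17 and 12.15, with overlap between the numbers (-0.21 ± 0.20, adjusted p = 0.427). None of the 4 was called for genotype, where the differences were -0.13 ± 0.29 for Sdha, 0.28 ± 0.30 for Sdhb, 0.13 ± 0.23 for Sdhc and -0.13 ± 0.43 for Sdhd. With OSM they were -0.09 ± 0.29, -0.09 ± 0.30, -0.13 ± 0.23 and -0.05 ± 0.43.

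In complex III the core protein Uqcrc1 had the smallest p. It read 13.50, 13.44, 13.61 and 13.11 and then 12.47, 12.36, 12.82 and 12.32. The numbers did not overlap, and it fell by 0.92 ± 0.12 (adjusted p = 0.00543). Uqcrc2, Uqcr10, Uqcr11, Uqcrq and Uqcrh also fell, by between 0.45 and 0.78. Uqcrb, at -0.11, and Cyc1, the cytochrome c1 subunit, did not pass.

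Cyc1 read 13.71, 13.45, 13.22 and 13.37 and then 13.08, 12.98, 13.80 and 13.70. On this brighter probe set number 3 was below number 2 in WT cells and above it in KO cells. This left a mean difference of -0.05 ± 0.24 (limma adjusted p = 0.887). On the dimmer Cyc1 probe set number 3 was above number 2 in WT cells as well. There, WT untreated read 8.10 and then 8.27, and WT with OSM 8.11 and then 8.20. For genotype the brighter probe set was at 0.22 ± 0.25 (adjusted p = 0.999) and for OSM at -0.08 ± 0.25 (adjusted p = 1).

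In cytochrome c oxidase, complex IV, some genes fell and the others lay near 0 or above it. Cox6a1, Cox7a2 and Cox5b fell by 0.84 ± 0.09, 0.98 ± 0.13 and 0.83 ± 0.10, with adjusted p of 0.00417, 0.00543 and 0.00504. Cox7a2 read 13.62, 13.89, 13.93 and 14.01 and then 12.95, 12.84, 12.92 and 12.81, without overlap between the numbers. The values of Cox6a1 given above do not overlap either.

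The other 5 complex IV genes were not called. Cox4i1, the isoform of subunit 4 that most tissues use, read 9.22, 9.55, 9.68 and 9.21 and then 9.69, 9.46, 9.54 and 9.45, with overlap and a difference of 0.12 ± 0.18 (adjusted p = 0.604). Cox7a2l, which is also known as a factor of supercomplex assembly, read 12.28, 12.20, 12.21 and 11.96 and then 12.53, 12.50, 12.29 and 11.89, with a difference of 0.14 ± 0.13 (adjusted p = 0.392). The signs of Cox4i1 and Cox7a2l both turned when the arrays were centred on their medians. Cox6b2, the testis isoform of subunit 6b, read 9.55, 9.97, 10.23 and 8.77 and then 10.16, 9.92, 10.02 and 9.90 on the 1 bright probe set of its 3 (0.37 ± 0.27, adjusted p = 0.299). Cox6c was at 0.01 and Cox7b at 0.39 (adjusted p = 0.148).

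None of the isoform genes was called between the lines, where 0.0192% of all genes were. The errors here come from the fit without the replicate number, so they include the difference between the numbers. For KO minus WT, Cox4i1 was at -0.01 ± 0.22, Cox6a1 at 0.0015 ± 0.36, Cox6b2 at -0.17 ± 0.32, Cox7a2 at 0.09 ± 0.43 and Cox7a2l at -0.29 ± 0.17, each with an adjusted p of 0.999. For OSM minus untreated, Cox4i1 was at -0.11 ± 0.22, Cox6a1 at -0.21 ± 0.36, Cox7a2 at 0.03 ± 0.43 and Cox7a2l at -0.19 ± 0.17, each with an adjusted p of 1.

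Among complex V genes Atp5e, the epsilon subunit, read 12.25, 12.57, 11.98 and 11.58 and then 11.42, 11.21, 11.05 and 10.52. Atp5o, which joins the catalytic head to the peripheral stalk, read 12.91, 13.29, 13.32 and 12.61 and then 11.91, 11.89, 12.30 and 12.04. The numbers did not overlap in either gene, and they fell by 1.05 ± 0.15 (adjusted p = 0.00646) and 0.998 ± 0.163 (adjusted p = 0.00895). Atp5g2, Atp5l, Atp5mpl and Atp5j also fell, by between 0.46 and 0.82. The alpha, gamma and delta subunits Atp5a1, Atp5c1 and Atp5d were at -0.04, -0.51 and -0.10 and were not called (adjusted p = 0.851, 0.06 and 0.605), although both dimmer probe sets of Atp5d were called lower.

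Cycs and Ndufaf4 went against the subunits. In Cycs the arrays numbered 3 lay 0.96 to 1.68 above those numbered 2 within each group, with a mean rise of 1.29 ± 0.19 (adjusted p = 0.00726), although the KO array with OSM numbered 2 overlapped the number 3 arrays and the call was lost with KO arrays alone (adjusted p = 0.059). Ndufaf4 rose by 1.79 ± 0.46 (adjusted p = 0.0288), with differences of 2.55, 2.28 and 2.31 in 3 groups and 0.01 in KO cells with OSM. Its call was lost when an array of WT untreated, WT with OSM or KO untreated cells was left out (adjusted p = 0.0985 to 0.102), and with KO arrays alone (adjusted p = 0.257).

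The number of calls depended on which arrays were fitted, for all genes as for the members. With WT arrays alone 28 members were called lower, 47.5% against 24.1% of all genes, and with KO arrays alone 3 were, 5.08% against 4.31% of all genes. Among the genes named above, Atp5e, Atp5o, Cox6a1, Sdhb, Sdhd and Uqcrc1 lost their calls with KO arrays alone (limma adjusted p = 0.0545 to 0.0878), as Cycs and Ndufaf4 did. Below 0 were 42 members with WT arrays alone and 43 with KO arrays alone. Calls fell to between 8 and 11 when a WT array was left out, 13.6% to 18.6% against 7.14% to 7.31% of all genes, and to 14 or 15 without an untreated KO array, 23.7% to 25.4% against 10.9% to 11.2%. All 23 members called lower in the full comparison stayed below 0 in each of these settings. By matched sets, 32 members lay lower on number 3 in all 4 groups, 54.2% against 25.5% of all genes, and 3 lay higher, 5.08% against 32.5%. Number differences correlated more within a line (0.9106 in WT and 0.7935 in KO cells) than across lines (0.589 to 0.6638). The 4 groups need therefore not count as 4 independent observations.

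Ndufa5, an accessory subunit of complex I, was the 1 member whose number difference was called as unequal between the lines, where 5.7% of all genes were, 3.41% with KO above WT as here and 2.29% the other way. It read 13.66, 13.66, 13.51 and 13.51 and then 12.43, 12.44, 13.58 and 13.43. The WT arrays numbered 3 lay below all others, which ranged from 13.43 to 13.66. The KO difference exceeded the WT difference by 1.23 ± 0.18 (adjusted p = 0.0327 by limma), in a comparison chosen after seeing the data. In the test across OSM states no member was called and 0 passed an unadjusted p under 0.05, against 0.0% and 1.39% of all genes.

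Several genes had more than 1 probe set above the filter, and these did not always match in the number comparison. For Ndufb2 the brighter probe set was at -0.67 and the other at -2.52. For Atp5d they were at -0.10 for the brightest, which was not called, and at -1.45 and -1.18 for the others, which were (adjusted p = 0.0052 and 0.0116). Ndufb6 was at -0.54 on its brighter probe set and at 0.93 on the other, both called (adjusted p = 0.016 and 0.0102). Ndufaf1 was at 0.01 on its brighter probe set, not called, and at 0.60 on the other, called higher (adjusted p = 0.0314). Cyc1 was at -0.05 on its brighter probe set and at 0.30 on the other, neither called (adjusted p = 0.887 and 0.239). Of the 34 skipped probe sets 32 lay above 0, with a median of 0.26, and 29 were called higher when no filter was used, against 73.6% of all probe sets under log2 5 on all arrays (median 0.29) and 46.9% of all probe sets.

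Other mitochondrial genes, from lists made with earlier results of these data known, gave these counts in the number comparison, in which 17.7% of all genes fell and 22.6% rose. Of 57 tested genes of the mitochondrial ribosome, which translates the subunits encoded by the mitochondrial genome, 16 fell and 2 rose, with a median of -0.28. Mrpl40, Mrpl27 and Mrpl41 had the smallest p and were at -1.85, -1.07 and -1.08. Of 16 genes of the TCA cycle and pyruvate dehydrogenase, which supply NADH and succinate, 6 fell and 1 rose, with Idh2 at -2.23 and Suclg2 at -0.83 against Idh3a at 2.38. The sign of the list thus did not hold for every enzyme.

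Of 12 assembly factors outside the members, 4 fell and 2 rose, among them the complex III factors Uqcc1 and Uqcc2 at -1.46 and -1.19 and the complex II factor Sdhaf2 at 0.84. Of 7 enzymes that feed electrons to ubiquinone by other routes, 1 fell and 3 rose, with Gpd2 at -1.66 and Sqor and Etfdh at 3.22 and 0.99. Of 9 carriers and porins 2 fell (Slc25a11 at -0.79 and Slc25a10 at -1.92) and 1 rose (Slc25a20 at 0.89). Of 13 regulators of mitochondrial biogenesis 2 fell and 4 rose, with Esrra and Sirt3 at -1.11 and -1.22 and Yy1 at 1.96.

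Of 21 protein import genes 6 fell and 4 rose, with Timm10b and Timm8b at -2.48 and -0.87 and Tomm70a at 0.87. Of 21 cytosolic ribosomal protein genes 1 fell and 4 rose, with a median of 0.20, and Rps10 was at -0.63 against Rpl41 and Rplp0 at 1.63 and 0.95. Several of these lists are small, so that their counts rest on 1 or 2 genes, and none was tested as a list. No transcript of the mitochondrial genome was matched by symbol.

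Many nuclear genes of the chain are known to have promoters with sites for NRF1 and for ETS-type factors such as GABPA. The 250 bases before the start were searched on both strands in the RefSeq promoters of GRCm38.p6, in which 47 of the 59 members had an entry. The NRF1-type motif GCATGCGC was found in 8 of the 47 (17%), against 5.7% of the 4244 tested genes with an entry and 2.26% of all promoter windows. The ETS-type motif CCGGAAG was found in 11 (23.4%), against 17.3% of tested genes and 6.91% of all windows. Matches may overlap each other, and a match describes letters, not binding.

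The STAT-type motif TTCNNNGAA was found in 4 members (8.51%, against 6.95% of tested genes and 7.02% of all windows). For the YY1-type motif AAGATGG the count was 1 (2.13%, against 5.28% and 4.49%), for the CRE motif TGACGTCA it was 2 (4.26%, against 2.87% and 1.55%) and for TATAAA it was 5 (10.6%, against 8.25% and 12.4%). Among the 20 members with an entry that fell with the number, 5 held the NRF1-type and 8 the ETS-type motif, and among the other 27 members 3 and 3 did. This split was not tested.

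Shown here are 120 bases up to the start of both members that rose with the number, Cycs and Ndufaf4, and of 2 that fell, Sdhb and Sdhd, because members that moved in opposite directions share a motif. The windows lie at chr6:50566570-50566689 (minus strand) for Cycs, chr4:24897963-24898082 (plus strand) for Ndufaf4, chr4:140961151-140961270 (plus strand) for Sdhb and chr9:50603850-50603969 (minus strand) for Sdhd. All are upstream of the annotated RefSeq start in GRCm38.p6, are written 5′ to 3′ on the gene's strand, and carry the motif match in capitals.
Cycs: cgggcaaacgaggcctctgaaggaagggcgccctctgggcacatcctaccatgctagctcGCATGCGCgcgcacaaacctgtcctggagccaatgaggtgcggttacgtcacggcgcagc
Ndufaf4: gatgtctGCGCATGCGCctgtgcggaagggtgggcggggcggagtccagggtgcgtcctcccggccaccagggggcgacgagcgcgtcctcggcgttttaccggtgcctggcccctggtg
Sdhb: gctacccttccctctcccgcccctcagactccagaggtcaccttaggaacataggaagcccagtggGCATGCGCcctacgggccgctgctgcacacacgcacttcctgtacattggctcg
Sdhd: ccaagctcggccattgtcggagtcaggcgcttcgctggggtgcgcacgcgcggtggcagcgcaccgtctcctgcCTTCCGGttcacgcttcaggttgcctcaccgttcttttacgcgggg
The NRF1-type motif stood at -60 to -53 in Cycs, at -113 to -106 and -111 to -104 in Ndufaf4 as 2 overlapping matches on opposite strands, and at -54 to -47 in Sdhb. In Sdhd the capitals mark the ETS-type motif on the opposite strand at -46 to -40. Cycs and Ndufaf4, which rose by 1.29 and 1.79, and Sdhb, which fell by 0.66, thus hold the same 8 letters within these windows.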

How the data were processed

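Total RNA of the 8 samples was hybridised to mouse Affymetrix arrays. The deposited values are log2 signals per probe set, made by the authors with GCRMA and affy per the submitters' processing notes, with tool versions not given in the sources used here. Because GCRMA compresses dim signals, differences near log2 5 are less certain. No scanner files or counts were used, and 2 arrays a group limit the precision.

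Differences were tested two-sided with limma 3.58.1 in R 4.3.3 (lmFit, and eBayes with a trend on intensity). The model had 4 group means over all 8 arrays, and probe sets at log2 5 or more on 2 or more arrays entered it. P-values were adjusted by Benjamini and Hochberg's method across these 6756, with calls at an adjusted p under 0.05. Each gene took its brightest tested probe set by mean. Errors are limma standard errors. The number comparison added the replicate number (3 residual degrees of freedom). Motif searches and tables used Python 3.11.15. The code was tested on simulated data.

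Differences between the numbers correlated over 6756 probe sets at 0.9106 between the WT groups, 0.7935 between the KO groups and 0.589 to 0.6638 across lines, which does not establish what the number marks.

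Members, lists, motifs and tests were chosen with earlier results of these data known. Named were, per complex, the member with the smallest p in each averaged comparison, the largest called number differences, the complex II genes, Cycs, Cyc1, the Cox isoforms, and up to 3 genes of each other list. Other genes were named after their values were seen. Endothelial, epithelial and leukocyte markers reached log2 5 on all arrays for 1 of 6, 0 of 6 and 1 of 7 genes.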

Additional observations from a re-analysis of the deposited data

Results flagged for a closer look

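Ndufa5 differed between the lines in its number difference, with KO minus WT at 1.23 on the log2 scale (adjusted p = 0.0327 by limma). In 9 further cases, for 8 of the 59 members, both matched differences of WT cells went one way and both of KO cells the other. Cyc1 did so for the replicate number on its brighter probe set alone, with KO minus WT at 0.998 (adjusted p = 0.0588). For the number, so did Cox6c with -0.48 (adjusted p = 0.212), Ndufb3 with -0.37 (adjusted p = 0.339) and Atp5a1 with -0.64 (adjusted p = 0.193). With OSM, Atp5l was above 0 in WT and below 0 in KO cells, with KO minus WT at -0.68 (adjusted p = 1), and Ndufb8, Ndufb6 and Uqcrq likewise at -0.33, -0.41 and -0.66 (adjusted p = 1 each). Atp5a1 was below 0 in WT and above 0 in KO cells with OSM, at 0.39 (adjusted p = 1). None of these 9 passed the test of the difference.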

How the results depend on the processing

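No member was called for genotype, OSM or their interaction under any setting tried, and with the replicate block, whose pairing the labels do not state, 0 members were called in each of these comparisons. For the replicate number, 25 of 59 members were called, where 40.3% of all genes were. Without a filter on dim probe sets 39 of 73 were called, where 53.9% of all genes were. With KO arrays alone 3 of 59 were called, where 10.6% of all genes were. With 1 array left out 9 to 24 of 59 were called, where 17.2% to 37.8% of all genes were. The members' median of -0.32 moved to -0.45 for subunits only, -0.18 without a filter and -0.58 with median centring, which itself shifted the median of all genes from 0.08 to -0.18. With 1 array left out it was -0.38 to -0.27. The median interaction of -0.10 ranged from -0.36 (without the WT array with OSM numbered 3) to 0.092. Members with all 4 matched OSM differences on the same side numbered 12, with 5 under median centring and 18 under quantile normalization. Of 900 recomputed values of named genes, 819 kept their sign and side of the threshold, 15 lost a call (8 of them with KO arrays alone) and 1 gained one, and 65 changed sign, none of which was called in the full comparison. Leaving out 1 array gave sign changes with these ranges for KO minus WT: Cox4i1 -0.13 to 0.11, Cox6a1 -0.23 to 0.23, Cox6b2 -0.46 to 0.11, Cox7a2 -0.21 to 0.39, Cycs -0.39 to 0.46, Sdha -0.33 to 0.075, Sdhc -0.033 to 0.30, Sdhd -0.44 to 0.18. For OSM minus untreated they were: Cox4i1 -0.23 to 0.0022, Cox6a1 -0.44 to 0.021, Cox7a2 -0.27 to 0.33, Cyc1 -0.23 to 0.078, Sdha -0.29 to 0.11, Sdhb -0.29 to 0.11, Sdhc -0.29 to 0.038, Sdhd -0.35 to 0.26. For the number they were: Cyc1 -0.25 to 0.15, Sdha -0.34 to 0.16. With quantile normalization Cox4i1 was at 0.051 (KO minus WT) and Cox7a2 at -0.013 (OSM). With median centring Cox6a1 was at -0.043 and Cycs at -0.0095 (KO minus WT), and Cox4i1 at -0.14 and Cox7a2l at -0.12 (number). For the number, Cyc1 was at 0.13 as a mean of probe sets and at 0.45 with KO arrays alone, Sdha at 0.35 with KO arrays alone and Sdhc at 0.13 with WT arrays alone. The causes were not tested. A fit of only the groups compared was not run for the averaged comparisons and the interaction, which need all groups.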

Other observations

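Protein import genes, which bring nuclear-encoded subunits into the mitochondrion, were 21 on the array after the filter. With OSM all 4 matched differences were above 0 in 10 of the 21 (47.6%), against 13.5% of all genes tested, and below 0 in 1. Of the mitochondrial and ribosomal lists outside the members this one had the largest share above 0, with 0.0% to 23.1% in the others. The share was not tested. None was called by limma in the mean over both lines, where 0.0% of genes were called, and 2 of 21 passed an unadjusted p under 0.05, against 3.98% of all genes. The list's median OSM difference was 0.13, beside -0.11 for the respiratory chain members.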
